A study of Mus musculus with 2 samples.

Results

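The barcodes described here are those with fewer than 1000 detected genes, meaning gene rows with at least 1 unique molecular identifier (UMI, the tag that marks each captured RNA molecule), in single-cell RNA sequencing of sorted mouse bone marrow cells. There were 232 of them among 1623 deposited barcodes, and the study's own cell filter takes them out. They made up 136 of the 798 barcodes of the radiation control (RC) library, or 17.0% (95% Clopper-Pearson interval 14.5 to 19.8%), and 96 of the 825 of the severe aplastic anemia (SAA) library, or 11.6% (9.53 to 14.02%). Both libraries came from hybrid F1 mice of the C57BL/6 and Balb/c strains that had received 300 rads, and the SAA mice were also given 65000000 splenocytes from B6 donors, the graft that attacks the marrow in this model. Bone marrow of 3 mice was pooled for each library and sorted for 7-AAD-CD11b+Ly6C+Ly6G- cells, a gate that takes living monocytes and leaves out cells with surface Ly6G. Ages of the mice and the day of harvest for this experiment are not given in the sources used here. With 1 library a condition there is no replicate check, so no test between the conditions was possible, and all intervals are 95% intervals that cover counting error only. A single barcode sequence occurs in both libraries, with 3815 UMIs in RC and as a low-RNA barcode of 924 UMIs and 412 genes in SAA.

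A barcode can fall below a limit on detected genes because the cell is small and holds little RNA, because its RNA is dominated by a few transcripts, or because RNA was lost before capture. Mature neutrophils and red cell precursors are known for small, narrow transcriptomes, plasma cells for RNA that is mostly immunoglobulin, and cells with a broken membrane for a high share of mitochondrial and nuclear transcripts. Monocytes leave the marrow as Ly6C-high classical cells and can become small, non-dividing non-classical monocytes. The question put to the data was which of these kinds of RNA the excluded barcodes carried.

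The low-RNA barcodes held 5.46% of the RC library's UMIs and 2.49% of those of the SAA library. Their UMI totals ran from 513 through a median of 1639.5 to 6361 in RC and from 501 through 1316 to 3961 in SAA. Detected genes ran from 44 through 791 to 999 in RC and from 26 through 695 to 999 in SAA. The limit cut through a continuous range, since the 3 RC barcodes just inside it had 998, 998 and 999 genes and the 3 just outside had 1002, 1004 and 1011, and in SAA the same barcodes had 994, 999 and 999 against 1002, 1003 and 1007. The barcodes with 1000 or more genes (662 in RC and 729 in SAA) had median totals of 4822.5 and 6514 UMIs. For all that follows they were thinned, each to a UMI total drawn from the low-RNA barcodes of the same library, so that both sets had like UMI totals over the whole library. Within a leaning (a call of lineage made below) the totals still differed. The median granulocyte-leaning barcode had 2325 UMIs in the low-RNA set against 1588 after thinning in RC and 2012.5 against 1332 in SAA, and the median monocyte-leaning one 1447 against 1638 and 1143 against 1302. Thinned barcodes then showed a median of 732.5 genes in RC and 680 in SAA, so at like UMIs over the library the low-RNA barcodes had about as many genes as the others. The number of genes chose the members and is given only as a description.

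**Figure D1:**
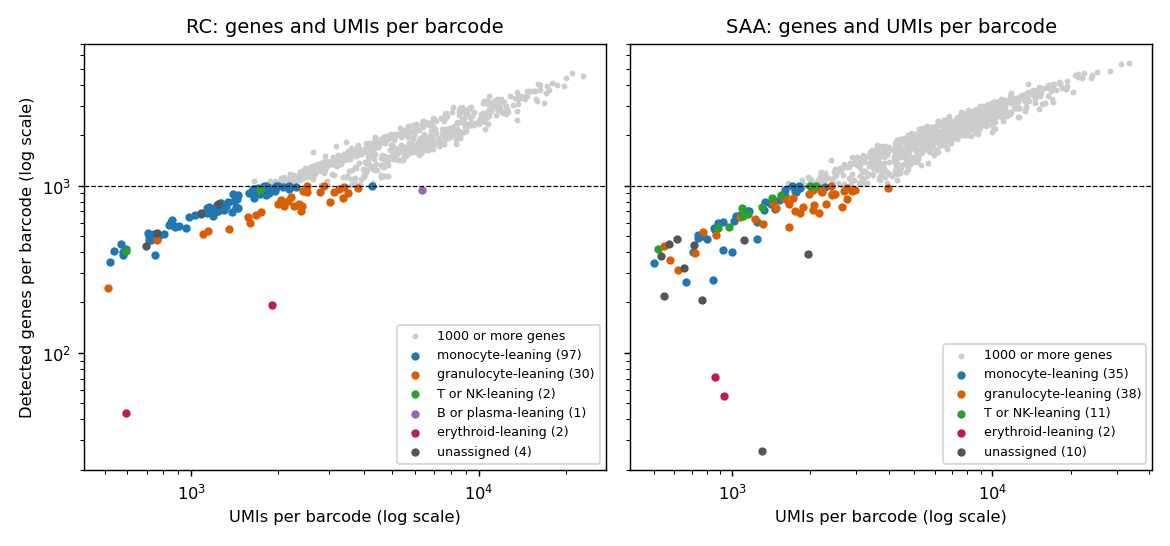
Detected genes against UMIs for every deposited barcode of RC (left) and SAA (right), both axes on a log scale, with the limit of 1000 genes as a dashed line. Coloured points are the 136 and 96 low-RNA barcodes by leaning and grey points are the other barcodes. Granulocyte-leaning points lie at higher UMI totals than monocyte-leaning points with as many genes, and a few erythroid-leaning and unassigned points lie far below the main band.

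Most low-RNA barcodes carried myeloid RNA, and monocyte RNA prevailed in RC. A barcode was called leaning towards a lineage when it showed at least 3 different markers of that list and at least 2 more than of any other of 8 lineage lists, and unassigned otherwise. In RC, 97 of 136 low-RNA barcodes were monocyte-leaning, or 71.3% (62.9 to 78.7%), against 52.0% (48.1 to 55.8%) of the thinned barcodes, and 30 were granulocyte-leaning, or 22.1% (15.4 to 30.0%), against 46.7% (42.8 to 50.6%). Neither pair of intervals overlapped. In SAA, 35 of 96 were monocyte-leaning, or 36.5% (26.9 to 46.9%), against 38.4% (34.9 to 42.0%), and 38 were granulocyte-leaning, or 39.6% (29.7 to 50.1%), against 54.3% (50.6 to 58.0%). T or NK-leaning barcodes, which carry transcripts of T lymphocytes or natural killer cells, made up 11 of 96 in SAA, or 11.5% (5.86 to 19.6%), against 5.21% (3.71 to 7.08%) of thinned barcodes, and 2 of 136 in RC. The unassigned share was 10.4% (5.11 to 18.3%) of the SAA low-RNA barcodes against 2.06% (1.16 to 3.37%) of the thinned ones. Thinning itself left 657 of 662 RC barcodes in their class. The median monocyte-leaning low-RNA barcode showed 9 monocyte markers in RC and 7 in SAA, next to 1 marker of the next best list, and the granulocyte-leaning ones showed 11 of their own in both libraries. No low-RNA barcode leaned to the platelet, basophil or plasmacytoid dendritic lists, which allows shares of up to 2.68% in RC and 3.77% in SAA by the Clopper-Pearson bound.

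**Figure D2:**
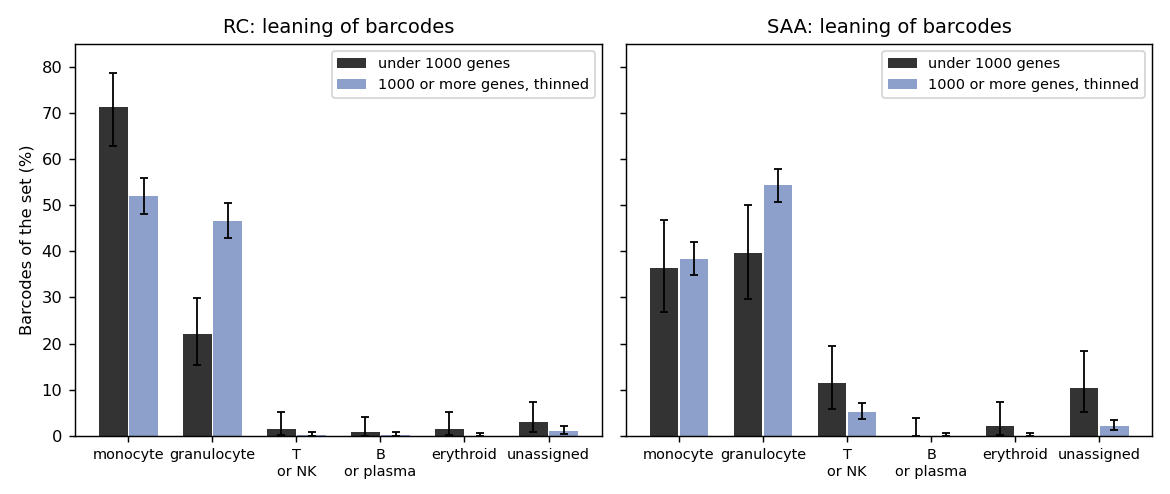
Share of barcodes in each leaning (y axis, percent of the set) for low-RNA barcodes (dark bars) and for the thinned barcodes with 1000 or more genes (light bars) in RC (left) and SAA (right). Bars start at 0 and lines are 95% Clopper-Pearson intervals, which cover counting error only. In RC the monocyte-leaning share is 71.3% against 52.0%, and in SAA the granulocyte-leaning share is 39.6% against 54.3%.

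The genes behind the sort were checked next. Levels are given as CPM, the UMIs of a gene summed over a set of barcodes and scaled to equal totals. Ly6c2, which encodes a Ly6C antigen, had 150 UMIs in the RC monocyte-leaning low-RNA barcodes, or 1079 CPM, against 2325 CPM in the thinned ones, a ratio of 0.464 (0.389 to 0.550). In SAA the ratio was 0.390 (0.305 to 0.492), from 1761 against 4513 CPM. Ly6c2 was thus lower in both libraries, and past 2-fold. Granulocyte-leaning low-RNA barcodes had 953 CPM of Ly6c2 against 994 CPM after thinning in RC, and 1148 against 1405 CPM in SAA. Ly6g, the antigen that the sort was meant to leave out, was at 0 UMIs in the monocyte-leaning low-RNA barcodes of both libraries. Its RNA was present in granulocyte-leaning low-RNA barcodes, at 499 CPM from 34 UMIs in RC (181 CPM after thinning) and at 277 CPM from 20 UMIs in SAA (157 CPM after thinning). Itgam, which encodes CD11b, had 309 CPM in monocyte-leaning and 616 CPM in granulocyte-leaning low-RNA barcodes of RC, and 286 and 581 CPM in SAA.

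Over all genes with at least 20 UMIs in the low-RNA and thinned sums together, 385 of 6237 in RC (6.17%) were more than 2-fold higher in low-RNA barcodes and 793 (12.7%) more than 2-fold lower. In SAA the counts were 464 of 6001 (7.73%) and 849 (14.1%). These are folds between summed counts of 1 library and not tests. The interval of a gene whose UMIs lie in a few barcodes is too narrow for that reason, and where 1 barcode decides a value it is named below.

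RNA of cell cycle genes was lower in the low-RNA barcodes than in the thinned ones. The 20 genes of the S phase list, which copy DNA and supply nucleotides, summed to 70 UMIs in RC low-RNA barcodes against 2062 in the thinned ones, 6.26-fold lower per UMI. In SAA they summed to 142 against 2542 UMIs, 2.35-fold lower. The 23 genes of the G2 and M phase list, which build the spindle and separate chromosomes, were 4.12-fold lower in RC (176 against 3408 UMIs) and 2.14-fold lower in SAA (260 against 4241 UMIs). Of the S phase genes, 19 passed the minimum of 20 UMIs in RC and all 19 were lower, 17 of them past 2-fold, and in SAA 18 passed and were lower, 12 past 2-fold, beside the 12.7% and 14.1% of all genes. All 23 G2 and M genes were past 2-fold lower in RC, and 17 of 23 in SAA.

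Named members show the same order. Top2a, a topoisomerase of dividing cells, had 63.0 CPM in RC low-RNA barcodes against 456 CPM, and 338 against 703 CPM in SAA. Mki67, the usual label of cycling cells, had 122 against 441 CPM in RC and 187 against 478 CPM in SAA. Rrm2, a subunit of ribonucleotide reductase, gave a ratio of 0.0485 (0.00583 to 0.178) in RC from 2 UMIs and 0.561 (0.321 to 0.917) in SAA from 17 UMIs. The ratio was therefore further below 1 in RC for Top2a, Mki67 and Rrm2. Histone genes that are transcribed with DNA replication were 5.40-fold lower in RC and 8.38-fold lower in SAA over the 67 genes of that list. Hist1h2ap had 5 UMIs in RC low-RNA barcodes against 411, and 3 against 550 in SAA, while Hist1h1b had 6 against 405 and 4 against 479. Histone genes of one cluster are near-identical, and how reads were shared among them is uncertain. Esco2, which joins sister chromatids, had 1 UMI against 74 in RC and 0 against 67 in SAA. Mcm5, part of the replication helicase, gave ratios of 0.119 (0.0241 to 0.355) and 0.174 (0.0469 to 0.454), and H2afx 0.193 (0.0952 to 0.351) and 0.229 (0.0829 to 0.506). Hist1h2ap, Hist1h1b, Esco2, Mcm5 and H2afx were among the genes chosen as lowest in both libraries, so being lower in both follows from the choice.

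Cycle genes were also counted per barcode and within each leaning. Of the S phase genes with at least 20 UMIs, 9 of 10 were past 2-fold lower in RC monocyte-leaning low-RNA barcodes, where 9.22% of 4532 genes were, and 5 of 9 in SAA, where 16.7% of 3372 were. In RC, 0 of 97 monocyte-leaning low-RNA barcodes showed 3 or more S phase genes, which allows a share of up to 3.73%, against 17.4% (13.6 to 21.9%) of the thinned ones. In SAA it was 0 of 35, which allows up to 10.0%, against 22.9% (18.1 to 28.2%). Among granulocyte-leaning barcodes, 6 of 30 low-RNA barcodes in RC showed 3 or more S phase genes, or 20% (7.71 to 38.6%), against 57.0% (51.2 to 62.6%), and 11 of 38 in SAA, or 28.9% (15.4 to 45.9%), against 54.0% (49.0 to 59.0%). Some granulocyte-leaning low-RNA barcodes thus carried cycle genes, and for 3 or more G2 and M genes the shares were 43.3% (25.5 to 62.6%) in RC and 39.5% (24.04 to 56.6%) in SAA, against 62.8% and 68.4% after thinning. Since totals differ within a leaning, the shares were counted again with every barcode of both sets thinned to 1000 UMIs and shallower ones left out, a choice made after the data were seen that left out 23 monocyte-leaning and 2 granulocyte-leaning low-RNA barcodes in RC and 14 and 6 in SAA. For 3 or more S phase genes, granulocyte-leaning barcodes then gave 10.7% (2.27 to 28.2%) against 41.1% (35.6 to 46.8%) in RC and 15.6% (5.28 to 32.8%) against 44.4% (39.5 to 49.5%) in SAA. Monocyte-leaning ones gave 0 of 74, which allows up to 4.86%, against 9.30% (6.45 to 12.9%) in RC, and 0 of 21, which allows up to 16.1%, against 16.8% (12.6 to 21.7%) in SAA, where a difference in this share was not detectable at this depth. For 3 or more G2 and M genes at that depth, RC monocyte-leaning barcodes gave 0 of 74 against 23.8% (19.4 to 28.7%). RC granulocyte-leaning ones gave 28.6% (13.2 to 48.7%) against 54.7% (49.0 to 60.3%). SAA monocyte-leaning ones gave 23.8% (8.22 to 47.2%) against 34.6% (29.1 to 40.5%). SAA granulocyte-leaning ones gave 37.5% (21.1 to 56.3%) against 59.6% (54.6 to 64.5%), and in SAA both pairs of intervals overlapped.

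Monocyte-leaning low-RNA barcodes of RC held more non-classical monocyte RNA than the deeper monocytes. Counted as 3 or more of 10 markers, 21 of 97 qualified, or 21.6% (13.9 to 31.2%), against 9.30% (6.45 to 12.9%) of 344 thinned monocyte-leaning barcodes and 1 of 30 granulocyte-leaning low-RNA barcodes. At 1000 UMIs in every barcode it was 16 of 74, or 21.6% (12.9 to 32.7%), against 4.07% (2.24 to 6.73%). The 10 markers summed to 294 against 616 UMIs in the monocyte-leaning sums, a ratio of 1.82 (1.58 to 2.10), and 3 of the 6 that passed the minimum were past 2-fold higher, beside 4.77% of the 4532 genes tested there. Pou2f2, a transcription factor, had 280 CPM against 132, and Itgal, an integrin chain that lets monocytes patrol vessel walls, 209 against 119. Spn, the CD43 antigen, had 86.3 against 88.6 CPM, a ratio of 0.974 (0.470 to 1.86), and Cebpb, a factor that non-classical monocytes need, 870 against 688 CPM.

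The 21 barcodes are described further by genes singled out after their values had been seen. Ace, which encodes angiotensin-converting enzyme, had 29 UMIs in them and 1 in the other 76 monocyte-leaning low-RNA barcodes. Adgre4 had 19 and 4 UMIs, Nr4a1, the nuclear receptor that non-classical monocytes depend on, 11 and 2, and Cx3cr1, the fractalkine receptor, 22 and 35. Ly6c2 stood at 716 CPM in the 21 and at 1188 CPM in the 76, and Fn1, a fibronectin made by classical monocytes, at 467 and 2712 CPM. These barcodes were chosen by their markers, so the contrast is a description. Ace and Nr4a1 are among those markers, so their contrast follows from the choice, while Adgre4, Cx3cr1, Ly6c2 and Fn1 are not. The 32 thinned barcodes with 3 or more of the markers differed from them, with 7 Ace UMIs, 1 Nr4a1 UMI, 2672 CPM of Ly6c2 and 1918 CPM of Fn1. They also held 155 UMIs of G2 and M genes and 85 of S phase genes, where the 21 low-RNA barcodes held 4 and 3. In RC, 30 Ace UMIs lay in all low-RNA barcodes against 12 in the thinned ones, a ratio of 11.8 (5.85 to 25.2). SAA had 2 of 35 such barcodes among the low-RNA monocyte-leaning ones, 5.71% (0.700 to 19.2%), against 2.86% (1.24 to 5.55%) after thinning. At 1000 UMIs in every barcode it had 0 of 21, which allows up to 16.1%, against 2.5% (1.01 to 5.08%), so no SAA excess was detectable.

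The genes highest and lowest in monocyte-leaning low-RNA barcodes of both libraries follow. Malat1, a long RNA kept in the nucleus, was 1.69 times (1.57 to 1.82) its thinned level in RC and 2.82 times (2.59 to 3.06) in SAA. Neat1, the RNA scaffold of nuclear paraspeckles, gave 2.09 (1.46 to 2.97) and 3.30 (2.07 to 5.12). Ptprc, which encodes CD45, gave 1.47 (1.21 to 1.78) and 1.84 (1.31 to 2.52), and Pla2g7, a secreted phospholipase, 2.16 (1.28 to 3.56) and 2.29 (1.47 to 3.45). Fam46a gave 1.72 (1.22 to 2.39) and 2.79 (1.34 to 5.40), and F630028O10Rik 2.23 (1.53 to 3.23) and 4.44 (1.88 to 9.78), the latter from 10 SAA UMIs of which 5 lay in 1 barcode. All 6 were chosen as highest in both libraries over the 97 and 35 barcodes, so being higher in both follows from the choice. In SAA, 17 of the 35 held over 5% mitochondrial UMIs or over 10% UMIs of the ribosomal RNA locus described below, and in the other 18 Malat1 gave 1.21 (1.03 to 1.42) and Neat1 1.55 (0.606 to 3.35) from 7 UMIs. The 84 RC barcodes outside those limits gave 1.56 (1.44 to 1.69) and 2.20 (1.51 to 3.17). The list of nuclear-retained and locus transcripts had a median log2 ratio of 1.66 over the 35 SAA barcodes and of 0.22 in the 18, with 5 of 6 genes higher.

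On the low side, Stmn1, which destabilizes microtubules in dividing cells, gave ratios of 0.0587 (0.0120 to 0.174) in RC and 0.189 (0.0386 to 0.563) in SAA. Ppia, the abundant cyclophilin A, gave 0.472 (0.403 to 0.550) and 0.290 (0.201 to 0.406). Ptma, prothymosin alpha, gave 0.507 (0.431 to 0.594) and 0.452 (0.343 to 0.586), and Hmgb2, a chromatin protein of dividing cells, 0.471 (0.395 to 0.559) and 0.449 (0.314 to 0.624). Ube2c, which drives exit from mitosis, had 8 UMIs against 134 in RC and 1 against 100 in SAA. Stmn1, Ppia, Ptma, Hmgb2 and Ube2c were chosen as lowest within this leaning in both libraries, so being lower in both follows from the choice. Genes of monocyte identity were mixed. Fn1 gave 0.850 (0.749 to 0.964) and 0.401 (0.128 to 0.961), and Ly6c2 was lower as given above. Ccr2, the receptor that releases monocytes from the marrow, gave 1.28 (1.11 to 1.47) and 1.18 (0.875 to 1.57), and Mpeg1, a pore-forming protein of macrophages, 1.06 (0.876 to 1.28) and 1.42 (1.06 to 1.88).

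Granulocyte-leaning low-RNA barcodes held less azurophil granule RNA than the deeper ones and more of some late neutrophil genes. Neutrophils fill azurophil granules at the promyelocyte stage, specific granules at the myelocyte stage and gelatinase granules last, while cell division and ribosome production wind down. The 8 azurophil genes summed to 12 UMIs in RC against 3682 in thinned granulocyte-leaning barcodes, 41.5-fold lower, and to 57 against 2582 in SAA, 5.66-fold lower. The specific granule list was at 1.26 (1.24 to 1.29) in RC and 1.15 (1.12 to 1.18) in SAA. Barcodes with 3 or more of 15 late neutrophil genes made up 22 of 30 in RC, or 73.3% (54.1 to 87.7%), against 40.1% (34.6 to 45.8%), and 29 of 38 in SAA, or 76.3% (59.8 to 88.6%), against 51.01% (45.97 to 56.04%). The low-RNA barcodes were the deeper set here. At 1000 UMIs in every barcode the shares were 50% (30.6 to 69.4%) against 35.0% (29.6 to 40.6%) in RC and 56.3% (37.7 to 73.6%) against 40.4% (35.5 to 45.4%) in SAA, and the intervals overlapped in both. Per UMI, the late list as a whole gave 1.31 (1.296 to 1.33) and 1.05 (1.04 to 1.07). In monocyte-leaning low-RNA barcodes, of lower median depth, the shares were 10.3% (5.06 to 18.1%) and 17.1% (6.56 to 33.6%). After thinning they were 6.69% (4.29 to 9.86%) and 16.8% (12.6 to 21.7%). At 1000 UMIs they were 9.46% (3.89 to 18.5%) against 2.33% (1.01 to 4.53%) in RC. In SAA they were 23.8% (8.22 to 47.2%) against 13.2% (9.48 to 17.8%). These intervals overlapped too, and a higher share was not particular to the granulocyte-leaning barcodes. Of the late genes in granulocyte-leaning barcodes, 4 of 8 that passed the minimum in RC and 5 of 11 in SAA were past 2-fold higher, where 6.23% of 3116 and 7.82% of 3720 genes were.

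Elane, which encodes neutrophil elastase, had 0 UMIs in the 30 RC granulocyte-leaning low-RNA barcodes against 1564 in 309 thinned ones, at least 70.5-fold lower when the 0 is set to a floor of 3 UMIs in the sum. In SAA it had 9 against 846, a ratio of 0.0852 (0.0388 to 0.163). Mpo, myeloperoxidase, had 1 against 565 and 3 against 301, the 3 in 1 barcode. Over all classes, Prtn3, proteinase 3, had 4 UMIs against 1149 in RC and 40 against 1237 in SAA, and Ctsg, cathepsin G, 0 against 181 and 0 against 49. Elane (79886247 to 79888215) and Prtn3 (79874476 to 79883174) lie side by side on chromosome 10 of GRCm38. Elane, Mpo and Prtn3 were among the genes chosen as lowest in both libraries, so being lower in both follows from the choice. They lay further below the thinned level in RC. Among specific granule genes, Ltf, lactoferrin, gave 1.64 (1.49 to 1.80) and 1.70 (1.59 to 1.83), and Lcn2, lipocalin 2, 1.51 (1.39 to 1.63) and 1.34 (1.25 to 1.43). Camp and Ngp, which encode further proteins of these granules, stayed between 1.03 and 1.29.

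Retnlg, a resistin-like secreted protein of mature neutrophils, had 104 UMIs in 7 RC granulocyte-leaning low-RNA barcodes against 15 UMIs in the thinned ones, a ratio of 51.3 (29.7 to 94.9). In SAA it had 117 against 28 UMIs, a ratio of 33.5 (22.01 to 52.5), but 100 of them lay in 1 barcode, and the ratio without that barcode was 5.14. In RC 52 and 43 of the UMIs lay in 2 barcodes and 9 in the others. The ratio was 26.0 without the first and 4.54 (1.75 to 11.1) without both, and in SAA, where 15 lay in the next barcode, 0.630 (0.0727 to 2.50) without both. Mmp9, the gelatinase of the last granules, gave 10.3 (4.28 to 26.0) and 5.01 (2.91 to 8.46), or 6.01 and 2.70 without the highest barcode. Fpr2, a formyl peptide receptor, gave 5.13 (2.95 to 8.79) and 2.22 (1.64 to 2.96), and Mxd1, a MAX partner that is switched on as myeloid cells stop dividing, 2.46 (1.21 to 4.72) and 2.98 (2.07 to 4.23). Retnlg, Mmp9 and Fpr2 were among the genes chosen as highest in both libraries, so being higher in both follows from the choice. S100a8 and S100a9, the calprotectin chains, gave 12287 and 8981 of the 68171 UMIs of RC granulocyte-leaning low-RNA barcodes and 8670 and 5919 of the 72322 UMIs of those of SAA.

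S100a6, a calcium-binding protein whose gene lies on chromosome 3 of GRCm38 (90612882 to 90624181) near S100a8 and S100a9, gave 9.02 (6.47 to 12.6) and 9.06 (7.45 to 11.0). In SAA, 102 of its 225 UMIs lay in 1 barcode and the ratio without it was 5.24. Capg, which caps actin filaments, gave 6.16 (2.38 to 15.6) and 4.005 (1.67 to 8.96), and Ifitm6, of the interferon-induced transmembrane family, 4.07 (3.34 to 4.95) and 2.03 (1.77 to 2.31). Slc27a4, a fatty acid carrier, gave 5.28 (2.10 to 12.8) and 3.60 (1.45 to 8.28), and Adpgk, an ADP-dependent glucokinase, 2.14 (1.74 to 2.62) and 1.85 (1.56 to 2.19). All 5 were chosen as highest within this leaning in both libraries, so being higher in both follows from the choice. Adpgk was higher in SAA by less than 2-fold.

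Ribosome genes stood at the other end in the granulocyte-leaning barcodes. The 83 cytosolic ribosomal protein genes were 2.01-fold lower in RC and 1.89-fold lower in SAA, with 79 of 79 and 79 of 80 genes below 1. Past 2-fold lower were 48 and 41 of them, where 22.5% and 18.1% of all genes were. Rps2 gave 0.330 (0.214 to 0.488) and 0.380 (0.264 to 0.531), Rpl36a 0.266 (0.140 to 0.461) and 0.291 (0.161 to 0.485), and Rpl12 0.0942 (0.0113 to 0.346) and 0.229 (0.0734 to 0.544). Npm1, the nucleolar protein that assembles ribosomes, gave 0.163 (0.0332 to 0.487) and 0.179 (0.0365 to 0.535), with 3 UMIs in each library. Bola2, which helps to mature iron-sulfur clusters, had 1 UMI against 94 in RC and 5 against 181 in SAA. Rps2, Rpl36a, Rpl12, Npm1 and Bola2 were chosen as lowest within this leaning in both libraries. Being lower in both follows from the choice, and they do not stand for the whole list. The median share of UMIs from ribosomal protein genes was 4.89% in RC and 4.78% in SAA granulocyte-leaning low-RNA barcodes, against 8.65% and 9.85% after thinning.

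**Figure D3:**
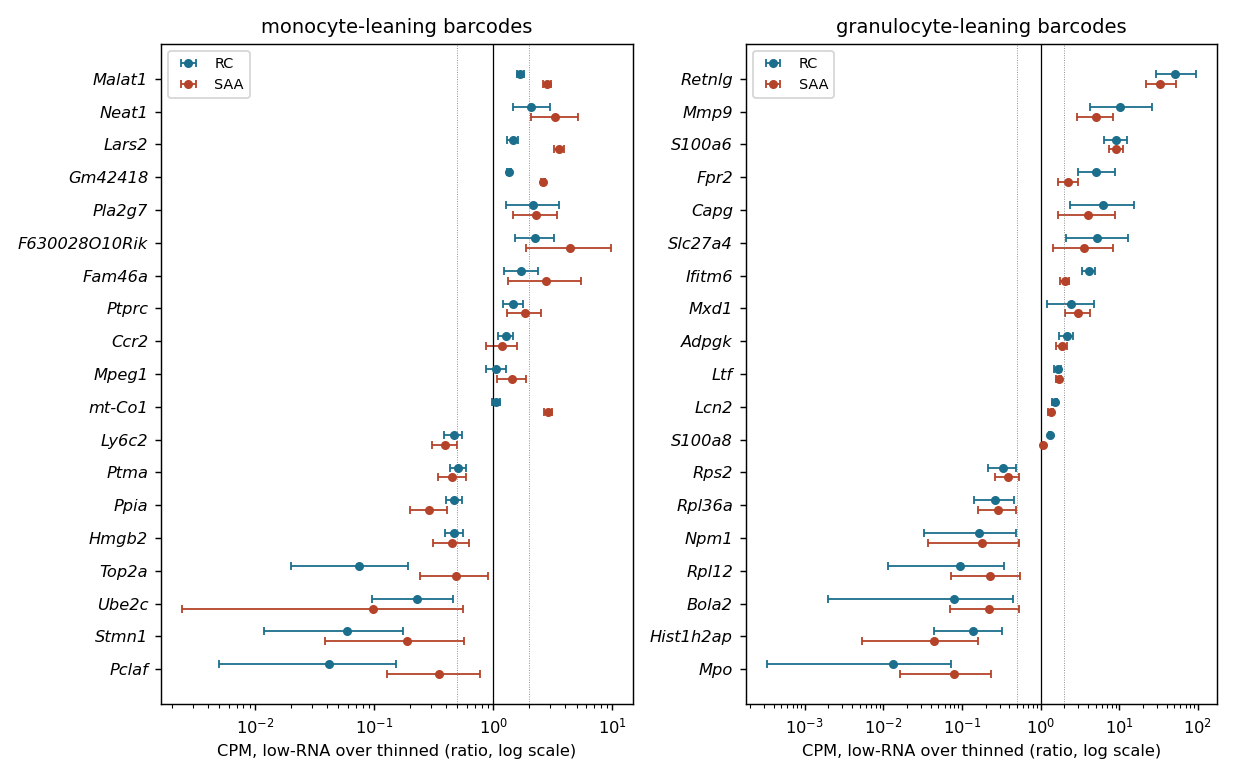
CPM in low-RNA barcodes over CPM in thinned barcodes (x axis, ratio on a log scale) for named genes within monocyte-leaning (left) and granulocyte-leaning barcodes (right), RC in blue and SAA in red. Points are ratios of summed counts, lines are 95% intervals of counting error, the solid line marks 1 and the dotted lines 2-fold. Retnlg, Mmp9 and S100a6 lie to the right and Hist1h2ap and Mpo far to the left in the granulocyte-leaning panel, and mt-Co1 lies at 1.06 in RC and 2.89 in SAA in the monocyte-leaning panel.

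Monocyte-leaning barcodes of RC kept most of their ribosomal protein RNA in sum and at the median, though not in every barcode. The same 83 genes gave a summed ratio of 0.953 (0.940 to 0.965) there, and the median barcode had 20.1% of its UMIs from them against 21.6% after thinning. Some RC barcodes with Malat1 as top gene had shares of only 0.383%, 0.370%, 0.175% and 0.282%, where the lowest thinned barcode had 5.78%. In SAA the ratio was 0.597 (0.579 to 0.616), with medians of 9.89% against 17.9%. The 88 nuclear-encoded respiratory chain genes followed, with 0.910 (0.878 to 0.943) in RC and 0.612 (0.572 to 0.655) in SAA. Rpl41 gave 0.995 (0.936 to 1.06) in RC and 0.625 (0.554 to 0.703) in SAA, and Rps29 1.06 (0.997 to 1.12) and 0.727 (0.634 to 0.829). The RC values thus lay at or near the thinned level and the SAA values below it.

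Mitochondrially encoded RNA also set the libraries apart. Its share of all low-RNA UMIs was 1.48% (1.43 to 1.53%) in RC against 1.52% (1.49 to 1.54%) after thinning, and 3.53% (3.43 to 3.62%) in SAA against 1.80% (1.78 to 1.83%). The median barcode differed little, with 1.40% against 1.47% in RC and 1.81% against 1.72% in SAA, so the SAA excess lay in a minority of barcodes. More than 5% mitochondrial UMIs were found in 9 of 136 RC low-RNA barcodes, or 6.62% (3.07 to 12.2%), and in 20 of 96 in SAA, or 20.8% (13.2 to 30.3%), against 0 of 662 and 2 of 729 thinned barcodes. The highest shares were 11.8% in RC and 47.7% in SAA, and 3 SAA barcodes lay above 25%. In monocyte-leaning SAA barcodes the 13 genes together gave 2.65 (2.53 to 2.78), with 11 of 13 past 2-fold higher where 10.5% of the 3372 genes tested were, while in granulocyte-leaning barcodes they gave 0.994 (0.934 to 1.06) in SAA and 0.568 (0.516 to 0.623) in RC. The 11 monocyte-leaning SAA barcodes over 5% mitochondrial UMIs showed a median of 4 monocyte markers, with 5 or fewer in 8 of them, where the other 24 showed 8.5, so their leaning rests on few markers. The 18 under both limits gave a mitochondrial list median of -0.09 on the log2 scale and a share of 1.63%. mt-Co1, a subunit of cytochrome oxidase, gave 2.89 (2.66 to 3.14) in SAA and 1.06 (0.980 to 1.15) in RC monocyte-leaning barcodes, and mt-Atp6, a subunit of ATP synthase, 2.46 (2.11 to 2.87) and 0.954 (0.830 to 1.09).

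Transcripts mapped to the ribosomal RNA locus took a higher share in the low-RNA barcodes of both libraries. Gm42418 (39846958 to 39848788, plus strand), AY036118 (39847113 to 39848035, minus strand) and Gm26917 (39843013 to 39846341) are long noncoding genes annotated at a ribosomal RNA repeat on chromosome 17 of GRCm38, and since the first pair overlap, how reads were split between them is uncertain. Their share of a barcode's UMIs had a median of 2.14% in RC low-RNA barcodes against 1.40% after thinning, and of 3.88% in SAA against 2.13%. Above 10% lay 28 of 96 SAA low-RNA barcodes, or 29.2% (20.3 to 39.3%), against 33 of 729 thinned ones, and 6 of 136 against 14 of 662 in RC. In SAA, 15 barcodes were above both 5% mitochondrial and 10% locus UMIs, and in RC none was, though 15 were above either, against 33 in SAA. Lars2, a mitochondrial leucyl-tRNA synthetase, gave 3.57 (3.21 to 3.96) in SAA and 1.46 (1.31 to 1.62) in RC monocyte-leaning barcodes, and 1.77 (1.47 to 2.13) and 1.18 (1.04 to 1.33) without those above either line. The 16 SAA barcodes under 400 genes had medians of 9.70% mitochondrial and 25.1% locus UMIs, and the 6 in RC 0.708% and 1.71%. An SAA barcode with 26 genes held 1071 Gm42418 UMIs among 1299, and one with 392 genes held 1327 among 1964.

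**Figure D4:**
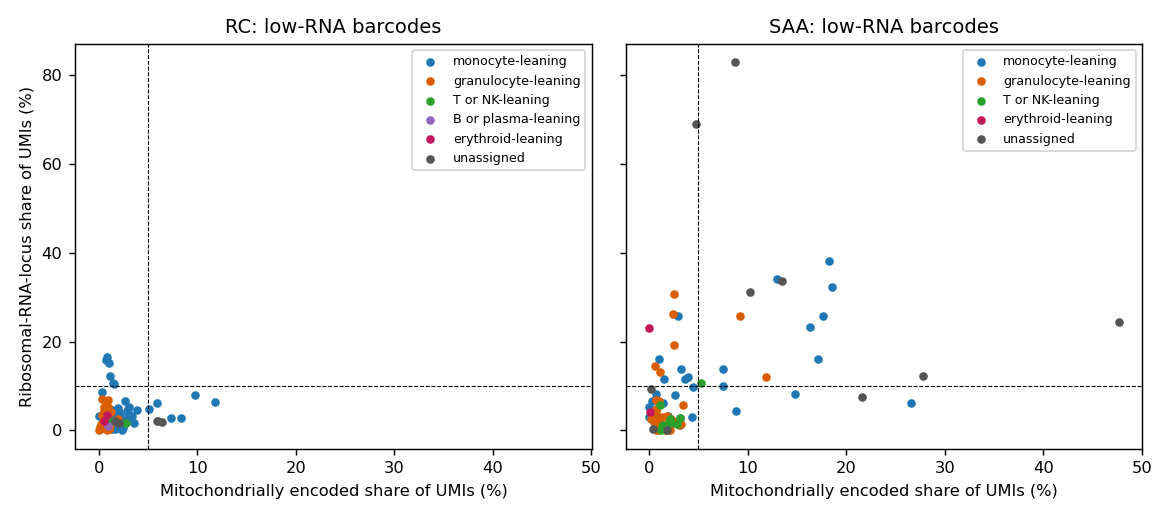
Share of UMIs from mitochondrially encoded genes (x axis, percent) against the share from the 3 ribosomal-RNA-locus genes (y axis, percent) for each low-RNA barcode of RC (left) and SAA (right), coloured by leaning. Dashed lines mark 5% and 10%. In SAA 15 barcodes lie beyond both lines, most of them monocyte-leaning or unassigned, and in RC none does.

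The SAA values were also taken without these barcodes. With the 33 SAA barcodes above either line left out, a choice made after the values were seen, the mitochondrial share of the other 63 was 1.45%, and the median log2 ratio of the 13 mitochondrial genes went from 0.89 to -0.57, a change that follows from how the barcodes were chosen. The S phase median was then -0.79 and the G2 and M phase median -1.08, with all 18 and all 23 tested genes lower, where the full set gave -1.22 and -1.28. Ribosomal protein genes kept a median of -0.59 with 78 of 80 lower, against -0.79. Within the 18 monocyte-leaning SAA barcodes left, that median was -0.34, and the S phase and G2 and M phase medians were both -0.44. Of the tested S phase genes, 5 of 9 were lower and 0 higher. Of the G2 and M phase genes, 16 of 21 were lower and 1 higher. The rest of both lists were counted as neither lower nor higher. This does not mean an unchanged level, since a gene with no UMI in a sum was set to a floor that can hide a decrease. The S phase and G2 and M phase medians of these barcodes can be too weak for that reason. They do not show that the decrease was smaller there than in the full set.

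Across bins of detected genes the low-RNA barcodes mostly prolonged a trend of the deeper ones. In RC monocyte-leaning barcodes, G2 and M phase genes summed to 324 CPM under 1000 genes, 713 CPM from 1000 to under 1500, 2394 CPM from 1500 to under 2000 and 7070 CPM from 2000. In SAA the order differed, with 1499.4, 987, 842 and 4406 CPM, so that the low-RNA bin stood above the next 2. Azurophil genes in granulocyte-leaning barcodes went through 176, 486, 2696 and 17902 CPM in RC and through 788, 1162, 2833 and 8274 CPM in SAA. Non-classical genes ran the other way in monocyte-leaning barcodes, through 2114, 1243, 1050.1 and 988 CPM in RC and 1452, 1319, 1096 and 1020.5 CPM in SAA. The intervals of the lowest SAA bins overlapped, at 1110 to 1865 and 1114 to 1550 CPM. In SAA low-RNA barcodes with and without 3 of these markers, Cebpb had 6 and 37 UMIs, Ace 2 and 0, and Nr4a1 0 in both. Mitochondrial genes broke the trend in SAA monocyte-leaning barcodes, with 53334 CPM under 1000 genes and 19170, 20009 and 20120 CPM above.

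**Figure D5:**
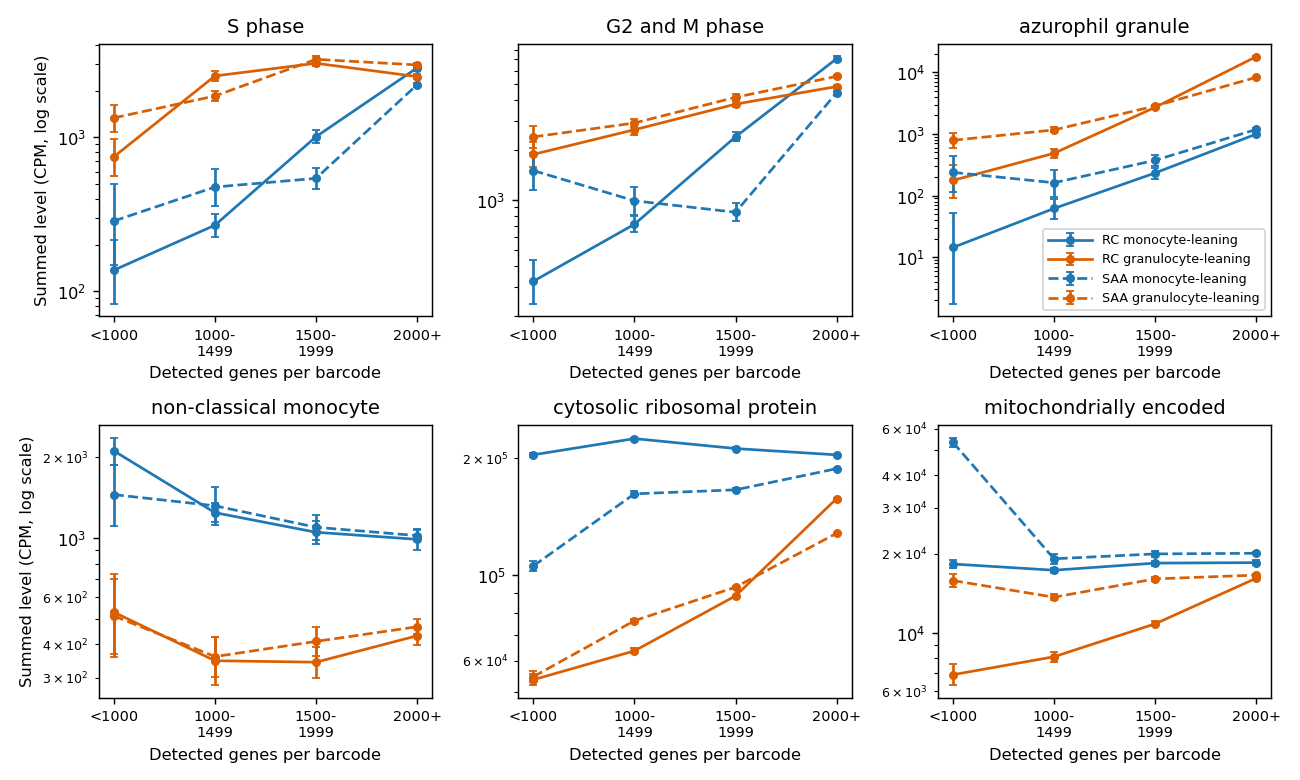
Summed CPM of 6 gene lists (y axes, log scale) at full depth by bin of detected genes per barcode (x axes), for monocyte-leaning (blue) and granulocyte-leaning barcodes (orange) of RC (solid) and SAA (dashed), with 95% Poisson intervals that cover counting error only. The leftmost points are the low-RNA barcodes, where azurophil genes of RC granulocyte-leaning barcodes stand at 176 CPM and mitochondrial genes of SAA monocyte-leaning barcodes at 53334 CPM, against 486 and 19170 CPM in the next bin.

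A few low-RNA barcodes were of other lineages. Hemoglobin made up 88.7% and 78.5% of the UMIs of 2 RC barcodes and 67.3% and 83.5% of those of 2 SAA barcodes, which had 44, 192, 55 and 72 genes. A further RC barcode with 998 genes and 4238 UMIs showed enough monocyte markers to be monocyte-leaning and also held 917 Hbb-bs UMIs, 36.5% hemoglobin. Hbb-bs, a beta-globin gene, had 2001 UMIs in 6 low-RNA barcodes of RC and 610 in 3 of SAA, against 6 and 3 UMIs in all thinned barcodes, so it was nearly confined to these few. Hba-a1, Hba-a2 and Hbb-bt, the other globins, behaved alike, and Hba-a1 and Hba-a2 are near-identical, so their split is uncertain. One RC barcode with 6361 UMIs, the most of any, and 937 genes was of plasma cell kind: Igkv3-2 gave 1380 UMIs, Igha, the IgA heavy chain, 1180, and Igkc, the kappa light chain, 1062. No SAA low-RNA barcode leaned to the B or plasma list, which had 12 UMIs there in all.

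T or NK-leaning low-RNA barcodes in SAA had medians of 8 markers and 1147 UMIs, and 2.01% mitochondrial UMIs. In the 11 barcodes, Ccl5, a chemokine of cytotoxic lymphocytes, had 136 UMIs in 9, Nkg7, of cytotoxic granules, 26 in 9, Trbc2, a T cell receptor constant gene, 21 in 8, and Cd8a 12 in 4. Gzmb, granzyme B, had 20 UMIs of which 15 lay in 1 barcode. Gzma, granzyme A, was 5.49 times (4.29 to 7.01) its thinned level over all SAA low-RNA barcodes, and 2.88 times without the highest barcode, which held 56 of 116 UMIs. S phase genes were at 0.391 (0.243 to 0.603) and G2 and M genes at 0.148 (0.0701 to 0.277) of their level in the 38 thinned T or NK-leaning barcodes. Ribosomal protein genes gave 0.888 (0.852 to 0.925) and mitochondrial genes 0.990 (0.872 to 1.12), so these barcodes held fewer cycle transcripts without the mitochondrial excess.

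Other cell types left few traces. The eosinophil list had 1 UMI in the low-RNA barcodes of each library, the stroma or endothelium list 3 in RC and 7 in SAA, and the stem and progenitor list 10 in each, the last against 179 and 104 UMIs in thinned barcodes. Macrophage markers summed to 248 CPM in RC and 302 CPM in SAA low-RNA barcodes against 170 and 187 CPM, and dendritic markers to 104 and 72.0 CPM against 69.8 and 58.6 CPM. Lgmn, a lysosomal protease, was 3.63 times (1.81 to 7.17) and 4.69 times (1.68 to 12.2) its thinned level, from 17 and 8 UMIs. It was also among the genes chosen as highest in both libraries.

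Low-RNA barcodes of the conditions were also set against each other. Of 2592 genes with at least 20 UMIs, 11.1% were more than 2-fold higher in SAA and 14.7% more than 2-fold lower. The 17 interferon-gamma GTPase genes, which attack the vacuoles of microbes, summed to 396 UMIs in SAA and 28 in RC, a ratio of 22.6 (15.4 to 34.5), against 20.1 (16.8 to 24.2) between the thinned barcodes. All 8 that passed the minimum were past 2-fold higher. Gbp2, a guanylate-binding protein, had 76 UMIs in 39 SAA barcodes and 2 in RC, a ratio of 60.8 (16.2 to 511). Iigp1, an immunity-related GTPase, had 63 UMIs in 29 barcodes and 0 in RC, at least 33.6-fold higher with the 0 at 3 UMIs. Ifi47 gave 26.4 (6.75 to 227), Gbp7 15.2 (5.47 to 58.6) and Gbp4 22.4 (7.15 to 113). Genes of the Gbp family resemble each other, and their split is uncertain. The difference between the libraries was thus present among the low-RNA barcodes too. The summed ratios were close, but over mixes of leanings that differ between the sets. Within monocyte-leaning barcodes the list median of low-RNA against thinned was 0.70 (log2) in SAA and -0.40 in RC, where 2 genes passed the minimum. In the 31 SAA granulocyte-leaning barcodes under the mitochondrial and locus limits it was -0.84, with 8 of 11 tested genes lower.

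Other SAA genes were as one-sided. Like Gbp2 and Iigp1, the single genes of this paragraph were chosen as highest or lowest in this comparison, so their direction follows from the choice. Ly6a, the Sca-1 antigen, had 44 UMIs against 0, Cxcl9, an interferon-gamma-induced chemokine, 42 against 0, Saa3, a serum amyloid protein, 44 against 0, and Lipg, endothelial lipase, 35 against 0. Ifitm1 had 68 against 0, but 66 of them lay in 1 barcode, and 49 of the 79 Ccl4 UMIs did. On the RC side, Fn1 had 305 UMIs against 8, Apoe, apolipoprotein E, 146 against 1, and Ear2, a ribonuclease of monocytes, 48 against 0. Jchain and Ighv3-6, like Igkv3-2, Igha and Igkc, were higher in RC through the plasma cell barcode. Fewer monocyte-leaning barcodes in SAA and less RNA of a gene per barcode both lower such a sum, so monocyte-leaning barcodes were also compared alone. There the interferon-gamma GTPases gave 42.03 (26.6 to 69.98), with 7 of 7 tested past 2-fold higher, where 12.2% of 1431 genes were higher and 20.1% lower by as much.

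MHC class I genes, which present peptides to CD8 T cells, gave 2.66 (2.45 to 2.89), with 14 of 14 tested past 2-fold higher, and class II genes 2.11 (1.82 to 2.45), or 4.43 (3.799 to 5.16) between monocyte-leaning barcodes. The thinned barcodes of all leanings together gave 3.57 (3.43 to 3.71) and 4.81 (4.44 to 5.22), so 4.81 is the counterpart of 2.11 and not of 4.43. H2-Aa had 820 against 279 CPM, H2-Ab1 475 against 216 CPM and H2-Eb1 367 against 140 CPM, and Ciita, their regulator, gave 3.20 (0.996 to 11.9) from 10 and 5 UMIs. Type I interferon-stimulated genes gave 1.52 (1.32 to 1.74), and Isg15 3.73 (1.84 to 8.05), while Ifi27l2a gave 0.728 (0.585 to 0.901). The median log2 ratio of the 10 type I genes tested was 1.37, and it turned to -0.53 among barcodes under 800 genes and to -0.46 at a minimum of 50 UMIs.

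For further genes that the study names, the low-RNA barcodes gave the following. Fgl2, a fibrinogen-like protein, was at 5.28 (2.54 to 12.002) and Aif1, an actin-binding protein of macrophages, at 3.07 (1.51 to 6.54). Fcgr1, the high-affinity IgG receptor, gave 3.52 (1.13 to 12.9) and Ccr1, a chemokine receptor, 2.97 (1.10 to 8.79). Icam1, an adhesion molecule, gave 9.59 (1.16 to 441) from 6 UMIs against 1. Tlr4, the endotoxin receptor, had 5 UMIs against 4, Tnf, the cytokine, 2 against 3, and Cmklr1, a lipid mediator receptor, 1 against 0, too few to show a difference at this depth. Cd47, which inhibits engulfment, had 504 CPM in SAA and 378 CPM in RC, a ratio of 1.33 (0.956 to 1.85), and Sirpa, its receptor on phagocytes, 331 and 446 CPM, a ratio of 0.743 (0.512 to 1.06). Between monocyte-leaning barcodes alone, Sirpa had 619 against 604 CPM, a ratio of 1.02 (0.633 to 1.61), and Cd47 262 against 381 CPM, a ratio of 0.687 (0.324 to 1.33). None of these intervals excluded 1. Pclaf and Top2a, cycle genes, gave 4.07 (1.96 to 9.06) and 5.37 (2.91 to 10.6), and Ccna2, cyclin A, 2.51 (0.889 to 7.64). These cycle gene ratios are over all low-RNA barcodes, of which 39.6% in SAA and 22.1% in RC were granulocyte-leaning. No value within a leaning is given for them.

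The other lists lay closer to the thinned barcodes. Glycolysis genes gave 0.887 (0.811 to 0.969) in RC and 0.902 (0.825 to 0.985) in SAA, and actin cytoskeleton genes 1.04 (1.02 to 1.06) and 0.931 (0.906 to 0.958). Immediate early and stress genes gave 1.22 (1.08 to 1.36) and 0.888 (0.778 to 1.01), and p53 target genes, which respond to DNA damage, 1.08 (0.826 to 1.41) and 0.694 (0.471 to 0.993). Translation and nucleolus genes gave 0.859 (0.801 to 0.920) and 0.713 (0.648 to 0.783).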

How the data were processed

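The data were 1 library of RC and 1 of SAA, each from cells sorted out of the marrow of 3 pooled mice. As deposited, they are whole UMI counts for 31053 genes in each barcode called a cell, not normalized. The authors used a 5' kit and Cell Ranger 6.0.1 with mm10. The libraries held 4066589 UMIs in RC and 5592265 in SAA.

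Barcodes with fewer than 1000 genes at 1 UMI or more were compared with all others of their library. Each of the others was thinned without replacement (seed 1) to a UMI total drawn from the low-RNA barcodes. Counts were summed per set and expressed as CPM. Ratios have exact conditional binomial 95% intervals, shares Clopper-Pearson intervals and levels by bin exact Poisson intervals. A gene at 0 UMIs was set to a floor of 3 UMIs in the sum for a bound. Genes were counted past 2-fold if both sums together held at least 20 UMIs. With 1 library a condition, no test was run. Doublets were not called or removed, and whether the authors removed any is not given in the sources used here. Gene positions are from GENCODE on GRCm38, the build named mm10 in the labels.

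The members and the 34 gene lists were chosen with earlier results of these data known. Genes named are, by the bounds of their intervals, the 12 highest and 12 lowest in both libraries, the 5 and 5 in each library, the 8 and 8 within monocyte-leaning and within granulocyte-leaning barcodes and between conditions, the 4 members of each list with most UMIs, and genes the study names. Others are named where they belong to a marker list or are said to have been singled out later. The marker lists are not printed in full in this text. Ly6c2, Fn1, Ccr2, Mpeg1 and Cx3cr1 are monocyte markers of the leaning call. Elane, Mpo, Prtn3, Ctsg, Ltf, Lcn2, Camp, Ngp, Retnlg and Ly6g are granulocyte markers of it. Their ratios within a leaning are thus of genes that took part in the call. A few of the genes so chosen are left out of the text. The scripts were tested on simulated data. Alternatives covered the seed, the limits on genes and UMIs, depth of the comparison, a fixed depth for both sets, scaling by TMM (edgeR 4.0.16) or by median ratios, weights, the class rule and left-out barcodes. Python 3.11.15, numpy 2.4.6, scipy 1.17.1, pandas 2.3.3, matplotlib 3.10.9 and R 4.3.3 were used.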

Additional observations from a re-analysis of the deposited data

Results flagged for a closer look

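A few list medians of low-RNA against thinned barcodes had opposite signs in the libraries, and none of these differences was tested. The B or plasma list had a median log2 ratio of -0.17 in SAA and of 10.11 in RC, where 1 plasma cell barcode held nearly all of its UMIs. Within monocyte-leaning barcodes the B or plasma list gave -0.41 in SAA and 0.93 in RC, where 1 gene passed the minimum. The interferon-gamma GTPase list within monocyte-leaning barcodes gave 0.70 in SAA and -0.40 in RC, where 2 genes passed.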

How the results depend on the processing

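Of 454 values recomputed under an alternative, 398 stayed within the spread or within 1.5 times the count first given, 54 moved and 2 turned their direction. A turn was counted only for list medians first given at 2-fold or more. Smaller medians that changed sign are not among the 2, such as the SAA mitochondrial list median of -0.57 given below. Another seed, TMM, median ratios, leaving mitochondrial genes out of totals, a lead of 1 marker, classes by UMIs and leaving out hemoglobin- or immunoglobulin-rich barcodes (the last chosen after seeing the data) moved none. At 1000 UMIs in every barcode, chosen after seeing the data, 20 of 56 shares of barcodes with 3 or more list genes moved. Limits of 800 and 1200 genes gave 69 and 238 low-RNA barcodes in RC and 65 and 152 in SAA. Among barcodes under 800 genes, mitochondrial shares were 1.87% in RC and 5.09% in SAA, the mitochondrial list medians 0.30 and 1.42 (log2), the RC ribosomal protein median -0.36, and 737 genes were past 2-fold higher in RC. The type I interferon median turned to -0.53 there and to -0.46 at a minimum of 50 UMIs, and the cause was not tested. That minimum gave 106 genes higher and 293 lower in RC, 141 and 431 in SAA, and an azurophil median of -2.78 in SAA, with fewer genes tested. No minimum gave 1476 higher in RC and 1888 in SAA, and comparison at full depth 969 and 1137. Against barcodes with 1500 or more genes, the thinned RC set was 58.2% granulocyte-leaning and 40.6% monocyte-leaning, and thinned mitochondrial shares were 1.58% and 1.83%. Equal weights gave mitochondrial list medians of 0.23 in RC and 1.32 in SAA and 628 genes higher in RC. Without barcodes over 25% mitochondrial, the SAA share was 2.83% and the list median 0.54. Without those over 5% mitochondrial or 10% ribosomal-RNA-locus UMIs, chosen after seeing the data, shares were 1.299% and 1.45% and the SAA list median -0.57. No paired analysis was possible because each condition has 1 library and no test was run, and no replicate could be left out. Genes with few UMIs in the low-RNA sums, such as Tnf and Cmklr1, are limited by depth.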
